A study of Mus musculus with 6 samples.

Results

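The genes that encode the translation factors were followed through RNA-seq libraries of small pre-B cells, the bone marrow B-cell precursors that rearrange their immunoglobulin light chain genes. Members were all rows of the count table whose symbol starts with Eif and a digit from 1 to 6, with Eef1 or with Eef2, together with Etf1, Gspt1 and Pabpc1. The eIF2 kinases (Eif2ak), the Y-linked Eif2s3y and rows marked as pseudogenes (-ps) were left out. This gave 71 of the 49997 rows in the table. The rule also takes in 8 genes that regulate elongation factors, most of them by methylation, the scaffold gene Eef1e1 of the tRNA synthetase complex, and Eif2c5, whose symbol belongs to the Argonaute family. Sorted small pre-B cells came from C57BL/6 mice of 6 to 12 weeks, 3 libraries from wild-type (WT) animals and 3 from animals of the ΔrsCBE genotype (labelled rsCBE). The labels name no treatment for either group. The labels do not give the interval that is deleted, the sex of the animals, or whether a library came from 1 mouse or a pool, so p-values measure the spread between these libraries only.

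Protein synthesis starts when the small ribosomal subunit, held open by eIF1, eIF1A and eIF3, receives the initiator tRNA from eIF2 and is brought to the capped messenger by eIF4F, the complex of the cap-binding protein eIF4E, the scaffold eIF4G and the helicase eIF4A. eIF5 and eIF5B then join the subunits, eEF1A and eEF2 drive elongation, and eRF1 and eRF3 (Etf1 and Gspt1) release the finished chain. In B-cell precursors the demand for protein synthesis is high in cycling large pre-B cells and lower after cells leave the cycle as small pre-B cells.

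Total counts ranged from 428106 in WT replicate 2 to 1300805 in WT replicate 3. Depending on the library, a detection floor of 3 counts stood for 2.32 to 7.17 CPM (counts scaled by the TMM-adjusted library total). All 11 small pre-B markers passed the count filter, among them Rag1, Il2ra and Pax5. Markers of other cell types were scarce: 6 of 8 T and NK markers, 6 of 7 erythroid markers and 3 of 8 myeloid markers were at 0 counts in every library, and the summed level was 0 to 2.46 CPM for T and NK markers and 51.7 to 81.2 CPM for myeloid markers, nearly all of it Itgam. ΔrsCBE replicates 2 and 3 had a female pattern (1603 and 1430 Xist counts, 0 counts of 4 Y-linked genes), and the other 4 libraries a male one. Cell-cycle markers were lower in ΔrsCBE: 15 of 21 tested passed the threshold downward and 0 upward. Over all tested genes 1.49% passed it downward and 0.205% upward. The median of the cell-cycle markers was -1.14 on the log2 scale. Their summed level was 6634 to 7304 CPM in WT and 2799 to 4510 CPM in ΔrsCBE. The part of sex and of cell-cycle state in the values of the members was not tested. In a bulk sample, fewer cells of a type and less RNA per cell cannot be told apart.

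The level of Eif4a1 cannot be read from its own row alone. Eif4a1 encodes the main eIF4A helicase, and the processed pseudogene Eif4a-ps4 carries a copy of its coding sequence that differs at 1 of 1218 aligned bases. The stretch with that difference is shown because a read from it fits either locus unless it covers the capital letter (mm10, sequence from GENCODE M21 transcripts; Eif4a1 at chr11:69668654-69668753 on the minus strand, Eif4a-ps4 at chr1:60704446-60704545 on the plus strand; each is 100 bases, with the base that differs in capitals).
Eif4a1: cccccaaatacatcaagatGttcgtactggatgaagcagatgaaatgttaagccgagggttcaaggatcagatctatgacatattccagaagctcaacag
Eif4a-ps4: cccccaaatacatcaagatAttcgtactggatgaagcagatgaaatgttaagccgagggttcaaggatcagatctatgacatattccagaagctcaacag

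Of the 71 members, 67 had a count in at least 1 library and 55 passed the count filter and were tested. With edgeR (quasi-likelihood, Benjamini-Hochberg over all tested genes), 0 of the 55 passed the threshold of 0.05, against 1.69% of all 7792 tested genes. At an unadjusted p-value under 0.05 the count was also 0 of 55, against 10.2% of all tested genes. DESeq2's Wald test called 0 members as well, and 92 of all 7792 tested genes. In that test 0 members had an unadjusted p-value under 0.05, against 5.94% of all tested genes. Fold changes lay on both sides of zero: 28 members were above and 27 below, the median being 0.01 on the log2 scale, and the median over all tested genes was also 0.01. The groups did not overlap in CPM for 3 of 55 members, Eif2s1, Eif2d and Eif4g3, which is 5.46% of them, while 16.2% of all tested genes had groups that did not overlap.

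A p-value above the threshold does not show that levels were equal, so the intervals of the fold changes are given. For 51 of 55 members (92.7%) the 95% interval of the fold change lay within a 2-fold change in either direction, and for 29 (52.7%) within 1.5-fold. Over all tested genes those shares were 78.4% and 36.2%. The shares were not compared at equal levels: 22 members had a mean of at least 100 CPM, as did 2119 of the 7792 tested genes. The interval reached beyond 2-fold for Eif3h, Eif3j1, Eif4ebp1 and Eef1akmt2. The narrowest interval belonged to Eif4g2, with a half-width of 0.20 on the log2 scale, and the widest to Eif3h, with 1.32.

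**Figure D1:**
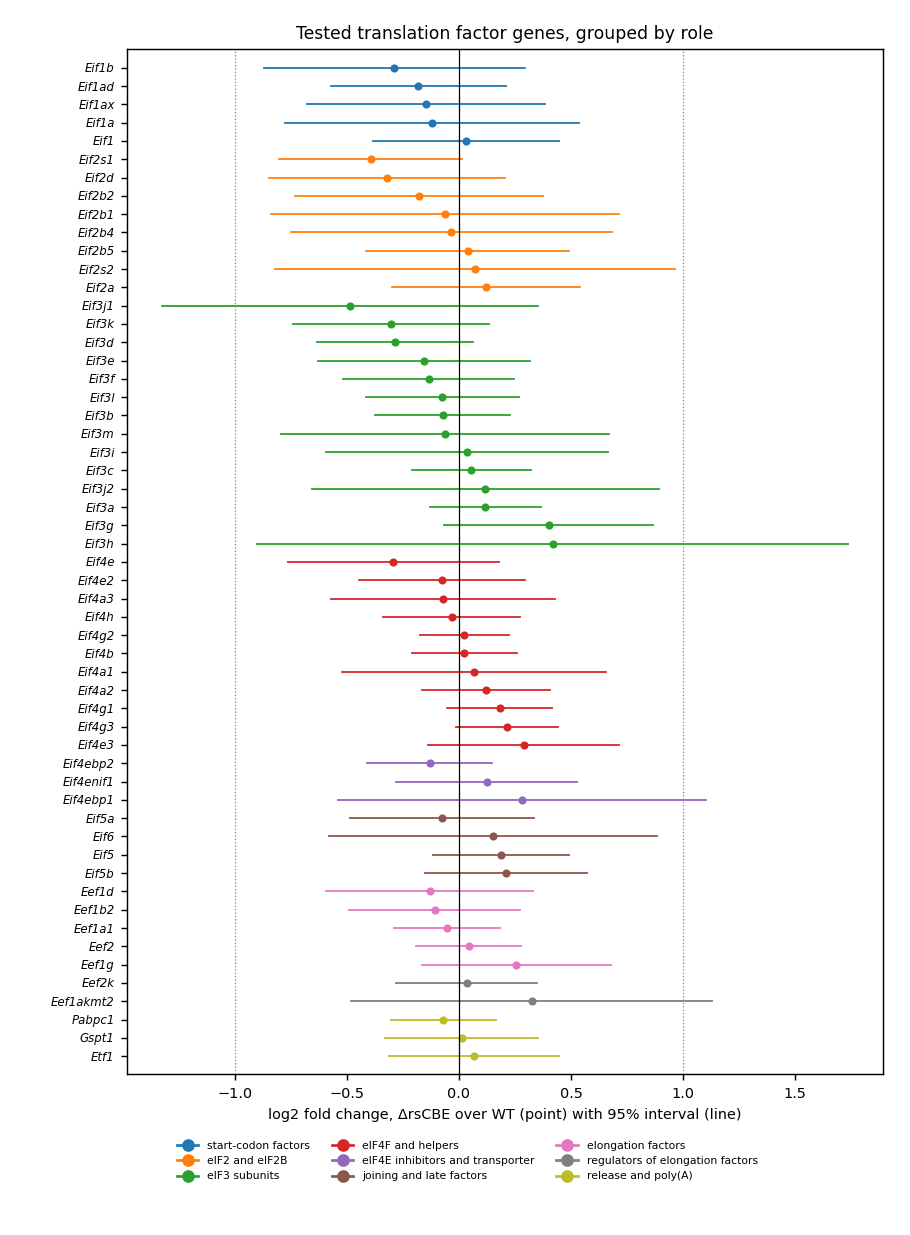
Log2 fold change of ΔrsCBE over WT (horizontal axis; points) with its 95% interval (lines) for the 55 tested members, coloured by role, with dotted lines at a 2-fold change in each direction. Every interval includes 0, and that of Eif3h is the widest.

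Summed over the 71 members, WT replicate 1 held 0.968% of its counts in translation factor genes (95% Wilson interval, from 0.944% up to 0.993%), WT replicate 2 held 1.06% (1.03%, 1.09%) and WT replicate 3 held 1.001% (0.984%, 1.02%). For ΔrsCBE the share was 1.11% (1.09%, 1.13%) in replicate 1, 1.02% (1.004%, 1.04%) in replicate 2 and 0.980% (0.958%, 1.001%) in replicate 3. The means were 1.01% ± 0.0457 and 1.04% ± 0.0648 (SD, n = 3), a difference of 0.0276 percentage points that is smaller than either SD, and the group ranges overlapped. Eef2 alone supplied 16.9% to 20.8% of the member counts. These intervals describe counting error alone, and the reads are not known to be independent molecules.

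Levels were compared between genes as CPM per kilobase of annotated exon, using exon lengths of GENCODE M21 (67 of 71 members were found there). Eef2, the translocase that moves the ribosome along the messenger, was highest, at 558 ± 73.4 in WT and 574 ± 101 in ΔrsCBE (CPM per kilobase, SD, n = 3). Eef1a1, which delivers aminoacyl-tRNA, followed at 233 ± 35.0 and 223 ± 16.7, and the SD ranges of these top members did not meet. The next places went to Eif3h, Pabpc1 and Eif4g2, whose means over the 6 libraries were 173, 140 and 120 CPM per kilobase. In WT, Eif3h (143 ± 84.1) and Pabpc1 (144 ± 21.9) did not differ beyond their spread, while in ΔrsCBE Eif3h (204 ± 28.0) stood above Pabpc1 (136 ± 16.6). The SD ranges of Pabpc1 and Eif4g2 met in both groups, although within each of the 6 libraries Pabpc1 was above Eif4g2. The closest values were 117 and 116 CPM per kilobase, in ΔrsCBE replicate 3. At the low end of the tested members stood Eif2s2 at 2.08 and Eif3j1 at 2.32.

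**Figure D2:**
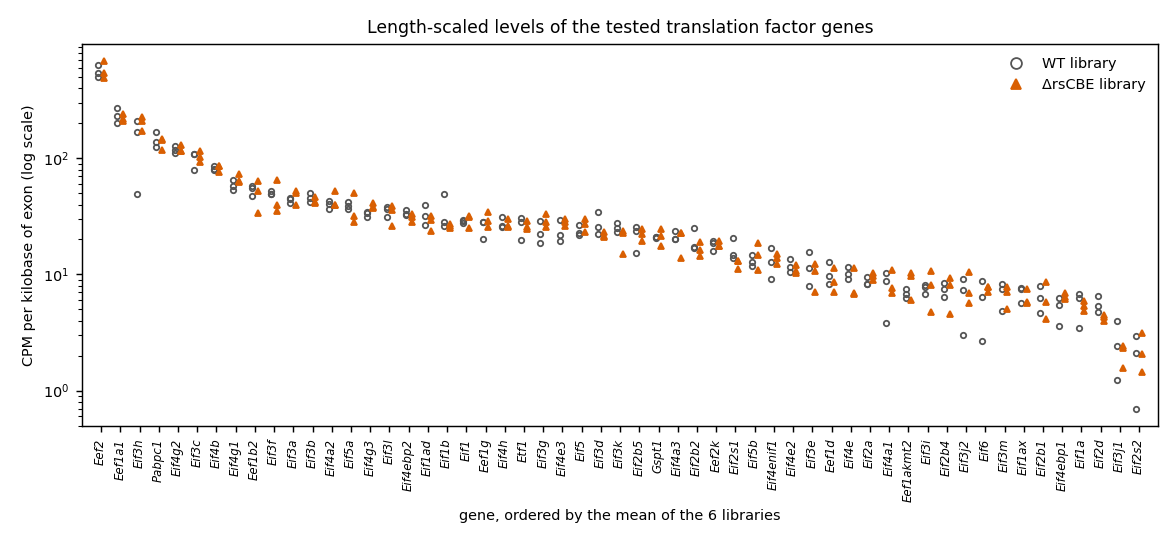
CPM per kilobase of exon (vertical axis, log scale) of each tested member in each WT library (circles) and ΔrsCBE library (triangles), ordered by the mean of the 6 libraries. Eef2 is highest in every library, and the circle of Eif3h that lies far below its other points is WT replicate 2.

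Start-codon selection is the task of eIF1 and eIF1A, which hold the scanning ribosome until an AUG is met. All 5 genes placed in this class by symbol were tested, and their log2 fold changes ran from -0.29 (Eif1b) to 0.03 (Eif1). Eif1ad, which is here by its symbol alone and encodes neither factor, had -0.18. Eif1 had 60.0, 62.1 and 58.7 CPM in WT and 67.2, 52.3 and 65.1 CPM in ΔrsCBE (here and below in the order of replicates 1 to 3). The ΔrsCBE libraries lay on both sides of the WT values. Eif1b was highest in WT replicate 2, at 23 counts, and lay between 28.3 and 31.6 CPM in the other 5 libraries. The X-linked Eif1ax had 30.0 to 40.6 CPM in WT and 30.2 to 39.3 CPM in ΔrsCBE.

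eIF2 carries the initiator tRNA, and eIF2B reloads it with GTP. Its alpha subunit, the site at which stress kinases act, is encoded by Eif2s1 (chromosome 12, 78861819 to 78887010, plus strand, mm10). Eif2s1 had the smallest p-value of the members: 101, 69.3 and 73.4 CPM in WT and 64.9, 64.4 and 55.3 CPM in ΔrsCBE. Each ΔrsCBE library was below each WT library, although WT replicate 1 stood well above the other 2. The log2 fold change (with its standard error, SE) was -0.39 ± 0.20, with a 95% interval from -0.80 to 0.02, and it did not pass the threshold (edgeR adjusted p-value 0.515, unadjusted 0.0585). Without WT replicate 1 the log2 fold change was -0.22. Of all stretches of 50 bases in its exons (50-base words), 5.76% also occur in other genes, most often Gm12734.

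Eif2d, a factor that can deliver tRNA to the ribosome without eIF2, was the other member of this class whose groups did not overlap. It had 39.5, 47.8 and 34.8 CPM in WT and 33.0, 29.2 and 31.9 CPM in ΔrsCBE, with the lowest WT and highest ΔrsCBE values close together. Its log2 fold change was -0.32 ± 0.26 (SE, edgeR adjusted p-value 0.751). The 4 tested eIF2B genes, Eif2b1, Eif2b2, Eif2b4 and Eif2b5, had log2 fold changes from -0.18 to 0.04. Eif2s2, the beta subunit, was counted at 3 to 26 reads per library, and its interval ran from -0.82 to 0.97. Eif2b3 had at most 12 counts in a library and was not tested. Eif2a, a factor apart from eIF2 despite its symbol, had a log2 fold change of 0.12, with 50.2 to 58.7 CPM in WT and 55.4 to 62.7 CPM in ΔrsCBE.

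The gamma subunit of eIF2 is encoded on both sex chromosomes. Eif2s3x (chromosome X, 94188707 to 94212862, minus strand, mm10) had 6, 5 and 12 counts in WT and 9, 16 and 9 in ΔrsCBE, or 9.48, 11.9, 9.27, 10.6, 16.1 and 11.1 CPM, and did not pass the count filter. The Y-linked copy Eif2s3y, which is no member, had 91.6, 78.8, 116 and 95.6 CPM in the 4 male libraries and 0 in ΔrsCBE replicates 2 and 3. The summed level of both genes was therefore 90.8 to 125 CPM in the male libraries and 16.1 and 11.1 CPM in the female ones. Per kilobase Eif2s3y stood at 18.9 to 27.8 in male libraries, while Eif2s3x averaged 2.99 over all libraries. Of the 50-base words of Eif2s3x, 34.6% also occur in Gm2223, so its count is uncertain. The coding sequences of the X and Y copies are 86.4% identical, with no identical run longer than 34 bases.

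eIF3, the largest initiation factor, binds the small subunit and bridges it to eIF4G. Its 14 genes in the table were all tested, 6 with a log2 fold change above and 8 below zero, with a median of -0.07. Eif3a, Eif3b and Eif3c, which encode the largest subunits, had log2 fold changes of 0.12, -0.07 and 0.06. Eif3a had 362, 397 and 389 CPM in WT and 347, 456 and 440 CPM in ΔrsCBE, with replicate 1 of ΔrsCBE as the lowest and replicates 2 and 3 as the highest of the 6 libraries. Levels per kilobase differed 74.7-fold between the highest row, Eif3h, and the lowest, Eif3j1, with a median of 25.5. Of their 50-base words, 20.3% and 36.9% also occur in other genes, so this ratio is uncertain.

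Eif3h was the least even of the members with a mean of at least 100 CPM. It encodes a subunit with an MPN domain (chromosome 15, 51786558 to 51865523, minus strand, mm10), and it had 273, 78.8 and 340 CPM in WT and 367, 340 and 279 CPM in ΔrsCBE. WT replicate 2 was thus 3.89 times lower than the mean of the other WT libraries, and the remaining 5 libraries lay between 273 and 367 CPM. Its log2 fold change, the highest of the members, was 0.42 ± 0.49 (SE, edgeR adjusted p-value 0.86). It was 0.0961 without WT replicate 2 and 0.83 without WT replicate 3. Among 2119 tested genes with a mean of at least 100 CPM, the highest WT library was at least 4 times the lowest for 2, of which Eif3h was 1, and the median ratio was 1.20. The next highest ratio among the members of that set was 1.56, for Eif3d. That low value rests on 33 counts where WT replicate 1 had 173, and 20.1% of the gene's 50-base words occur in AC122253.2.

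The other eIF3 genes at the ends of the range were Eif3g and Eif3j1. Eif3g, which binds RNA near the entry channel, had 44.2, 57.3 and 37.1 CPM in WT and 56.6, 51.3 and 66.4 CPM in ΔrsCBE, so the groups overlapped. Its log2 fold change was 0.40 ± 0.23 (SE, edgeR adjusted p-value 0.594). Eif3j1, which encodes a loosely bound subunit, had the lowest log2 fold change of the members, -0.49 ± 0.41 (SE, edgeR adjusted p-value 0.765), from 3 to 30 counts per library. The coding sequence of Eif3j2 aligns to that of Eif3j1 over 781 bases with 0 differences, so the division of reads between them is uncertain. Summed, the pair had 31.6, 14.3 and 44.8 CPM in WT and 30.7, 34.2 and 27.0 CPM in ΔrsCBE, with every ΔrsCBE library inside the WT range.

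**Figure D3:**
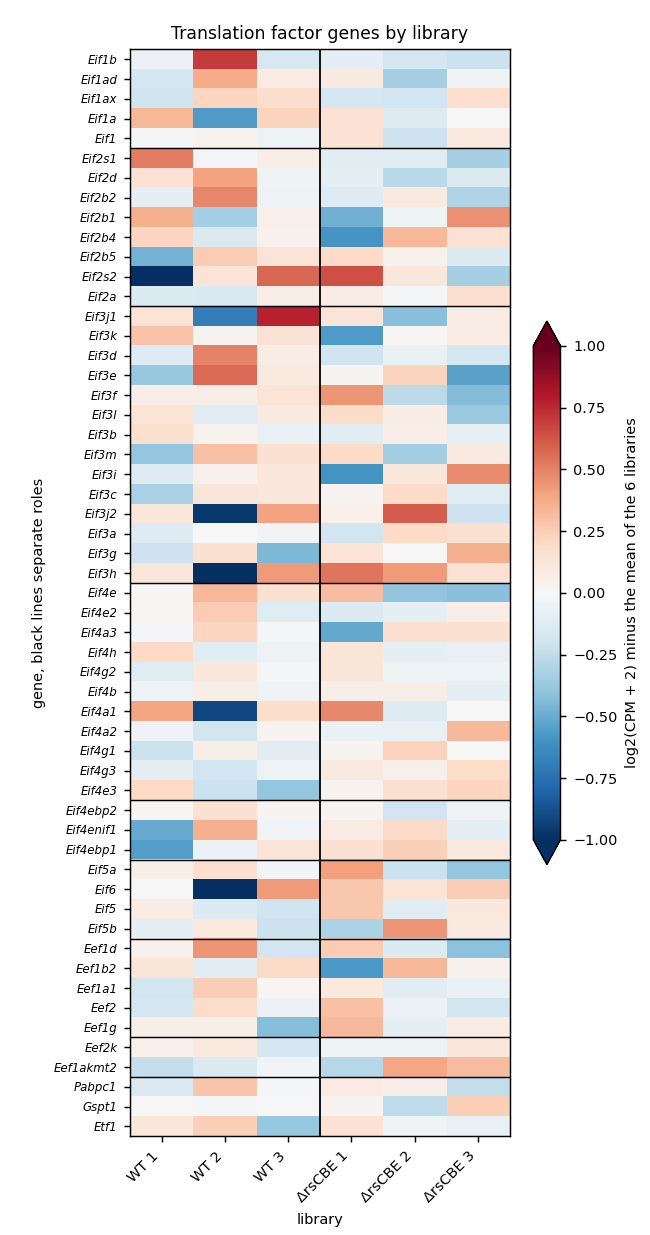
Deviation of log2(CPM + 2) from the mean of the 6 libraries (colour, red above and blue below, saturating at 1) for the 55 tested members (rows, black lines between roles) in each library (columns). The bluest cells are WT replicate 2 for Eif3h, Eif6, Eif3j2 and Eif4a1 and WT replicate 1 for Eif2s2.

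eIF4F brings the messenger to the ribosome. The 11 genes placed with it by symbol had log2 fold changes from -0.29 to 0.29, with 7 above and 4 below zero. They take in helpers and the relatives Eif4a3, Eif4e2 and Eif4e3, so not all of them encode parts of eIF4F. Eif4g3 (chromosome 4, 137993022 to 138208508, plus strand, mm10), a scaffold related to Eif4g1, had 374, 349 and 385 CPM in WT and 425, 413 and 453 CPM in ΔrsCBE. All ΔrsCBE libraries were above all WT libraries. The log2 fold change was 0.21 ± 0.11 (SE), with a 95% interval from -0.01 to 0.44, and did not pass the threshold (edgeR adjusted p-value 0.536). Eif4g1, the main scaffold, had 390, 473 and 421 CPM in WT and 461, 532 and 453 CPM in ΔrsCBE, groups that overlapped, with a fold change of 0.18 ± 0.11 (log2, SE, edgeR adjusted p-value 0.641). Eif4g2, which lacks the eIF4E-binding part, was the most abundant of the 3 scaffolds per kilobase, and its log2 fold change was 0.02, with an interval from -0.17 to 0.22.

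The cap-binding protein gene Eif4e had 55.3, 69.3 and 61.0 CPM in WT and 68.4, 41.3 and 40.6 CPM in ΔrsCBE. ΔrsCBE replicate 1, the male library, was inside the WT range, and the female libraries were below it. The log2 fold change was -0.29 ± 0.23 (SE, edgeR adjusted p-value 0.748), and with library sex added to the fit it was 0.16. The cap-binding relatives Eif4e2 and Eif4e3 had log2 fold changes of -0.08 and 0.29. Per kilobase Eif4e averaged 9.32, Eif4e2 11.5 and Eif4e3 25.9. Eif4b and Eif4h, which stimulate the helicase, had log2 fold changes of 0.02 and -0.03.

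Eif4a2, the paralog of Eif4a1, had 216, 196 and 227 CPM in WT and 212, 211 and 279 CPM in ΔrsCBE, a fold change of 0.12 ± 0.14 (log2, SE, edgeR adjusted p-value 0.842). Its groups overlapped, with ΔrsCBE replicate 3 as the highest library. The Eif4a1 row itself held 44.2, 16.7 and 37.8 CPM in WT and 47.2, 30.2 and 33.2 CPM in ΔrsCBE (log2 fold change 0.07, SE 0.29, edgeR adjusted p-value 0.976). The near-identical Eif4a-ps4 row shown above held 302, 325 and 379 CPM in WT and 296, 292 and 248 CPM in ΔrsCBE, between 6.28 and 19.4 times as much. This pseudogene row did not overlap between the groups, which was also the case for 16.2% of all tested genes. Its log2 fold change was -0.28 (95% interval -0.53 to -0.02, edgeR adjusted p-value 0.426, unadjusted 0.0366). Of all tested genes 10.2% had an unadjusted p-value under 0.05 by edgeR. With both rows added into one, which was chosen after their values were seen, the log2 fold change was -0.23 ± 0.12 (SE, edgeR adjusted p-value 0.541). The levels of that sum were 346, 342 and 417 CPM in WT and 343, 322 and 281 CPM in ΔrsCBE, with ΔrsCBE replicate 1 inside the WT range.

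**Figure D4:**
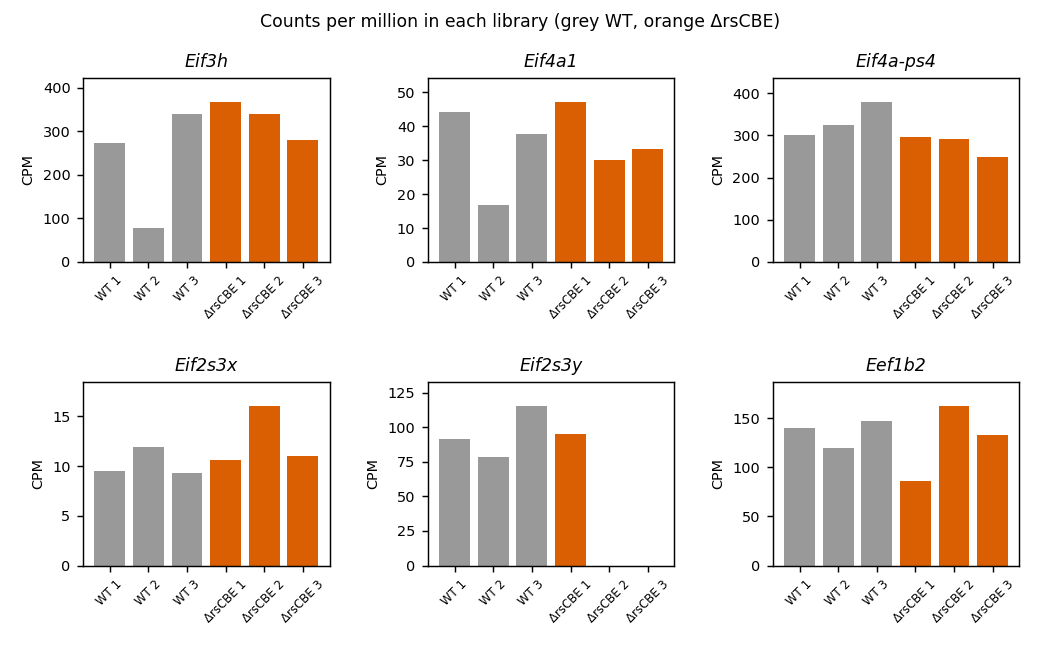
CPM (vertical axes, from 0) in each of the 6 libraries (bars, grey WT and orange ΔrsCBE) for members whose values turn on 1 library, and for the pseudogene and Y-linked rows beside them. Eif3h and Eif4a1 are lowest in WT replicate 2, Eif4a-ps4 exceeds Eif4a1 in every library, Eif2s3y is 0 in ΔrsCBE replicates 2 and 3, and Eef1b2 is lowest in ΔrsCBE replicate 1.

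The 4E-binding proteins hold eIF4E away from eIF4G until the kinase mTORC1 phosphorylates them. Eif4ebp2 had 190, 208 and 191 CPM in WT and 190, 163 and 182 CPM in ΔrsCBE, a fold change of -0.13 ± 0.14 (log2, SE, edgeR adjusted p-value 0.818). ΔrsCBE replicate 1 was inside the WT range, and replicates 2 and 3 were below it. Eif4ebp1 had 7.90, 11.9 and 13.9 CPM in WT and 14.2, 15.1 and 13.5 CPM in ΔrsCBE, with a fold change of 0.28 ± 0.40 (log2, SE, edgeR adjusted p-value 0.882), and its groups overlapped. Per kilobase Eif4ebp2 averaged 32.4 and Eif4ebp1 5.81, and these differed beyond the spread between libraries. The ratio of Eif4ebp2 to Eif4e counts was 3.19 ± 0.220 in WT and 3.74 ± 0.874 in ΔrsCBE (SD, n = 3), and ranged from 2.78 in ΔrsCBE replicate 1 to 4.48 in ΔrsCBE replicate 3. Eif4ebp3 had 3 to 8 counts per library and was not tested.

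Late initiation and subunit joining were covered by 4 tested genes, with log2 fold changes from -0.07 to 0.21. Eif5, the GTPase activator of eIF2, and Eif5b, the joining GTPase, had log2 fold changes of 0.19 and 0.21. Eif5a, which carries the amino acid hypusine and relieves stalled ribosomes, had 93.2, 100.3 and 87.3 CPM in WT and 119, 76.5 and 67.6 CPM in ΔrsCBE. ΔrsCBE replicate 1 was above and replicates 2 and 3 below the WT range. Its log2 fold change was -0.07 ± 0.20 (SE, edgeR adjusted p-value 0.958), and with the sex covariate it was 0.37 (edgeR adjusted p-value 0.577). Eif6, which keeps the subunits apart, had 3 counts in WT replicate 2 and 11 to 31 elsewhere.

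Elongation factor genes had log2 fold changes from -0.13 (Eef1d) to 0.26 (Eef1g), with 2 of the 5 tested genes above zero. Eef2 (chromosome 10, 81176631 to 81182498, plus strand, mm10) had 1652, 2126 and 1790 CPM in WT and 2285, 1790 and 1648 CPM in ΔrsCBE, with a fold change of 0.04 ± 0.11 (log2, SE, edgeR adjusted p-value 0.956). The highest value was in ΔrsCBE replicate 1 and the lowest in ΔrsCBE replicate 3. Eef1a1 had 498, 671 and 573 CPM in WT and 604, 525 and 541 CPM in ΔrsCBE, with every ΔrsCBE library inside the WT range (log2 fold change -0.05, SE 0.12, edgeR adjusted p-value 0.941). Of its 50-base words, 39.4% occur in other genes, chiefly pseudogenes such as Gm13456, so its level is uncertain. The ratio of Eef2 to Eef1a1 counts was 3.20 ± 0.103 in WT and 3.41 ± 0.368 in ΔrsCBE (SD, n = 3).

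The exchange complex that recharges eEF1A is encoded by Eef1b2, Eef1d and Eef1g. Eef1b2 had 141, 119 and 148 CPM in WT and 86.1, 163 and 133 CPM in ΔrsCBE, so ΔrsCBE replicate 1 was the lowest of the 6 libraries and replicate 2 the highest. Eef1g ran from 52.5 to 74.2 CPM in WT and from 66.4 to 89.7 CPM in ΔrsCBE, and 44.2% of its 50-base words occur in other genes. Eef1a2, the paralog of muscle and neurons, had a single count, in WT replicate 3, and 0 in the other 5 libraries.

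Eef2k encodes the kinase that inactivates eEF2. It had 139, 143 and 119 CPM in WT and 130, 130 and 145 CPM in ΔrsCBE, with a fold change of 0.04 ± 0.15 (log2, SE, edgeR adjusted p-value 0.976). The groups overlapped. Of the eEF1A and eEF2 methyltransferase genes only Eef1akmt2 was tested, with 5 to 18 counts per library and a log2 fold change of 0.33 (SE 0.39, edgeR adjusted p-value 0.852).

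Termination and messenger binding were covered by 3 tested genes. Gspt1 (eRF3) had 114, 112 and 114 CPM in WT and 116, 94.6 and 134 CPM in ΔrsCBE, with a fold change of 0.01 ± 0.17 (log2, SE, edgeR adjusted p-value 0.992). The WT libraries nearly coincided and lay between those of ΔrsCBE. Etf1 (eRF1) had 104, 115 and 74.1 CPM in WT and 107, 94.6 and 92.2 CPM in ΔrsCBE, inside the WT range (log2 fold change 0.07, SE 0.18, edgeR adjusted p-value 0.958). Pabpc1, the cytoplasmic poly(A)-binding protein that ties the tail to eIF4G, had 825, 1101 and 897 CPM in WT and 963, 946 and 767 CPM in ΔrsCBE. Its groups overlapped (log2 fold change -0.07, SE 0.11, edgeR adjusted p-value 0.908).

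The remaining 16 members were not tested. Eef1akmt3, Eef1akmt4-ece2, Eif2c5 and Eif4e1b were at 0 counts in every library. The others, Eef1e1, Eef1aknmt, Eef2kmt, Eif2b3, Eif2s3x, Eif4ebp3, Eif4a3l1, Eif4a3l2, Eif5a2, Eef1a2, Eef1akmt1 and Eef1akmt4, had at most 18 counts in a library. They fell under the count filter, so no fold change is given for them.

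Library sex was not balanced between the genotypes. In a fit with sex as a covariate the genotype effect rests on ΔrsCBE replicate 1 against WT, and 3 of 55 members had an unadjusted p-value under 0.05, a smaller share than the 10.9% of all tested genes in that fit. These were Eef1b2 (log2 fold change -0.69, SE 0.23, edgeR adjusted p-value 0.173), Eef2 (0.30, SE 0.12, adjusted p-value 0.297) and Eif3k (-0.76, SE 0.30, adjusted p-value 0.299). None of these passed the threshold. Eif3k, which encodes a small eIF3 subunit, had 74.2, 62.1 and 67.2 CPM in WT and 40.1, 61.4 and 63.9 CPM in ΔrsCBE, with replicate 1 of ΔrsCBE as the lowest library. No WT library had the female pattern, so sex and genotype cannot be told apart for the other ΔrsCBE libraries.

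Lists of genes that act on or beside the translation factors were read in the same fit. Of 86 such genes 66 were tested, and 0 passed the threshold in either direction, against 1.69% of all tested genes. At an unadjusted p-value under 0.05 there was 1, against 10.2% of all tested genes. That gene was Mknk1, a kinase that phosphorylates eIF4E. Mknk1 had 79.0, 64.5 and 68.7 CPM in WT and 96.7, 82.5 and 118 CPM in ΔrsCBE (log2 fold change 0.48, SE 0.19, edgeR adjusted p-value 0.309). The groups did not overlap for 4 of the 66 genes (6.06%), Mknk1 among them, while 16.2% of all tested genes had groups that did not overlap. By list, 0 of 20 other cytosolic translation factors, 0 of 8 genes of the eIF2 kinases and the stress response, 0 of 12 mTORC1 pathway genes, 0 of 21 cytosolic tRNA synthetase genes and 0 of 5 mitochondrial translation factors passed. The medians were 0.03, 0.17, 0.04, -0.04 and 0.04 on the log2 scale, beside 0.01 over all tested genes.

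Among the stress-response genes, Ppp1r15a, the phosphatase subunit that restores eIF2, had 156, 105 and 117 CPM in WT and 224, 95.6 and 199 CPM in ΔrsCBE. ΔrsCBE replicate 2 was the lowest of the 6 libraries while replicates 1 and 3 were the highest (log2 fold change 0.44, edgeR adjusted p-value 0.713). Without ΔrsCBE replicate 2 it passed the threshold, as given with the alternatives. Atf4, the transcription factor translated when eIF2 is phosphorylated, had a log2 fold change of 0.12, and Mtor of -0.01.

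**Figure D5:**
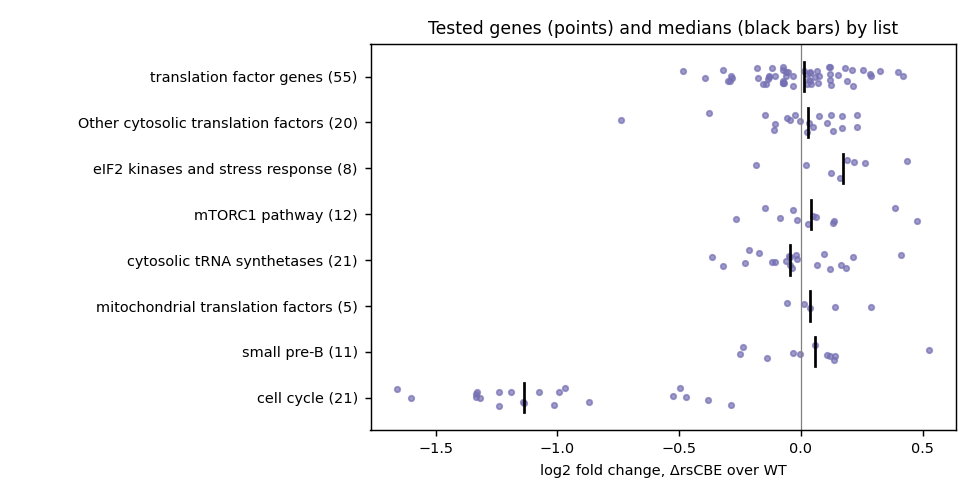
Log2 fold change of ΔrsCBE over WT (horizontal axis) of each tested gene (points) with the median (black bar) for the translation factors, 5 related lists, the small pre-B markers and the cell-cycle markers; numbers in brackets are tested genes. The medians of the translation lists lie between -0.04 and 0.17, and that of the cell-cycle markers at -1.14.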

How the data were processed

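The authors deposited 1 table of raw read counts, whole numbers with no normalization, for the 6 libraries (428106 to 1300805 counts each). The submitters' processing notes name Trim Galore 0.6.10, STAR 2.7.11, HTSeq, DESeq2 and the build mm10. The annotation, the strand setting and any filter are not given in the sources used here. Per the labels' protocols, RNA depleted of ribosomal RNA was made into stranded total RNA libraries. Exons of 14 tested members overlap a gene on the opposite strand, and exons of 12 overlap a gene on the same strand.

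Counts were tested with edgeR 4.0.16 in R 4.3.3: filterByExpr (minimum count 10) left 7792 genes, scaled by TMM and fitted with robust glmQLFit and glmQLFTest, genotype being the sole factor. Benjamini-Hochberg adjustment ran across these genes, with a threshold of 0.05. The fit weights libraries by depth, so a fold change can differ from the ratio of mean CPM. Standard errors come from the F statistic and intervals are at 95%. The procedure was checked on simulated counts. CPM uses the library total times its TMM factor.

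Exon lengths, positions and shared 50-base words come from GENCODE M21 (GRCm38, the same assembly as mm10). The lengths may differ from those of the annotation behind the counts, which affects levels per kilobase but no fold change.

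The members, lists and tests were chosen with earlier results of these data known. Full statistics were given to members past the threshold or with an unadjusted p-value under 0.05 (there were 0 of either), to the 3 highest and 3 lowest fold changes, to the highest level per kilobase and to 15 members of known central role. Eif4g3, Eif4a-ps4, Eif2s3y, Mknk1, Ppp1r15a and the members with an unadjusted p-value under 0.05 in the sex-covariate fit were added after their values were seen. Alternatives covered scaling (size factors of DESeq2, plain library size, and TMM computed without the 20 most abundant genes), DESeq2's Wald test (1.42.0), the count filter, the threshold, sex and replicate number as covariates, and each library left out. Adding the Eif4a-ps4 counts to Eif4a1 was chosen after seeing the data.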

Additional observations from a re-analysis of the deposited data

How the results depend on the processing

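The count of 0 members past the threshold, in either direction, held under all 15 alternatives run on it, and the smallest adjusted p-value of a member in edgeR or DESeq2 was then 0.173 (Eef1b2, sex covariate). Up to 4 members had an unadjusted p-value under 0.05 when 1 library was left out: Eif3a, Eif3f, Eif4e and Eif5b without ΔrsCBE replicate 1, or 4 of 55, where 12.2% of all tested genes did. With any other library left out, 0 to 2 members did, where 7.94% to 10.9% of all tested genes did. The median log2 fold change of the members ran from -0.03 to 0.04, and the difference in their share of counts from -0.0077 to 0.0561 percentage points. Over all tested genes the 132 calls became 87 with the sex covariate and 59 to 187 with 1 library left out (59 without WT replicate 3 or ΔrsCBE replicate 3, 187 without ΔrsCBE replicate 2), and the cause was not tested. Among the related lists 0 calls became 1 without ΔrsCBE replicate 2, when Ppp1r15a reached 0.74 on the log2 scale (adjusted p-value 0.00533 by edgeR).

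None of the tested members first chosen for full statistics was called in either direction. Of their recomputed log2 fold changes 24 changed sign and 243 did not, and the cause was not tested. With the sex covariate these were Eef1akmt2 (-0.21), Eif4e (0.16), Eif4a2 (-0.0226), Eif5a (0.37), Eef1a1 (0.0663), Eef2k (-0.0144) and Pabpc1 (0.0415). With the Eif4a-ps4 counts added, which was chosen after seeing the data, Eif4a1 went to -0.23. With 1 library left out, log2 fold changes ranged from -0.69 to 0.11 for Eif3j1, -0.11 to 0.15 for Eef2, -0.15 to 0.24 for Eif4a1, -0.0227 to 0.19 for Eif4a2, -0.35 to 0.0705 for Eif5a, -0.15 to 0.0586 for Eef1a1, -0.0613 to 0.0869 for Eef2k, -0.15 to 0.19 for Etf1, -0.11 to 0.14 for Gspt1 and -0.15 to 0.0563 for Pabpc1. Without a change of sign they ranged from 0.0961 to 0.83 for Eif3h, -0.49 to -0.22 for Eif2s1, 0.22 to 0.54 for Eif3g, -0.58 to -0.16 for Eif4e, 0.10 to 0.57 for Eif4ebp1 and 0.18 to 0.52 for Eef1akmt2.

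Deviations of same-numbered libraries of the genotypes had correlations of 0.0131, 0.0197 and 0.0091. Libraries with different numbers had correlations from -0.0472 to 0.0345. Small correlations cannot exclude pairing, so whether the numbers pair the samples is not known. With a replicate block, 0 members and 136 of all tested genes passed the threshold. Shallow libraries limit members with few counts, such as Eif3j1 and Eif2s2, whose intervals are wide.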
